A study of Mus musculus with 12 samples.

Results

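Tumours given an antibody that blocks PD-1 were compared with tumours given none, whichever other treatment they had. The 6 anti-PD-1-treated tumours were 3 that received both the antibody and DSF (the combination) and 3 that received the antibody alone (anti-PD-1). The 6 anti-PD-1-free tumours were 3 that received DSF alone (DSF) and 3 that received neither (control). Membership follows the treatment in the sample titles, and these 12 libraries are all 12 of the series. DSF (usually disulfiram, a drug that inhibits aldehyde dehydrogenase) was given by mouth and the antibody by intraperitoneal injection. All tumours grew from 4T1 cells, a single mouse mammary carcinoma line, injected under the skin of the right flank of BALB/c mice. Mice were randomised into arms of 5, and the 3 libraries of an arm were treated as tumours of separate mice. The labels do not say which mouse gave which library, so p-values measure the spread between these libraries. Dose, schedule and the age of the mice were not given in the sources used here.

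PD-1, encoded by Pdcd1, is an inhibitory receptor on activated T cells, and its ligands PD-L1 (Cd274) and PD-L2 (Pdcd1lg2) are carried by tumour and myeloid cells. Blocking it can let T cells release interferon gamma, which acts on neighbouring cells and raises MHC class II genes through the transactivator CIITA. Type I interferons act through a transcription factor complex that binds the interferon-stimulated response element and raises antiviral genes such as the Ifit and Oas families. 4T1 tumours are known for a large infiltrate of neutrophils and other granulocytic myeloid cells.

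RNA was sequenced from whole tumour tissue on the BGISEQ-500 platform, and total counts per library ran between 13323171 and 16809705. The keratins of the 4T1 epithelium were abundant in all 12 libraries, at 257 to 426 FPKM for Krt8 and 314 to 528 FPKM for Krt18. The epithelial gene Epcam varied more, from 0.73 to 23.4 FPKM, and the leukocyte gene Ptprc lay at 17.2 to 36.2 FPKM. Levels below are CPM, which are counts divided by TMM-scaled library sizes. In bulk tissue, fewer cells of a type and less RNA per cell cannot be told apart. Marker genes of skin, which lies over a flank tumour, took 0.141 to 0.738% of counts in combination and 0.0170 to 0.148% in anti-PD-1 tumours, against 0.0144 to 0.0306% in DSF and 0.0345 to 0.0763% in control tumours. Combination replicate 2 held the highest skin share, 0.738% (95% Wilson interval 0.734 to 0.743%). DSF replicate 2 stood apart in its adipocyte genes, at 1.28% of counts (95% Wilson interval 1.28 to 1.29%), where every other library had at most 0.0973%. The intervals cover counting error only.

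**Figure D1:**
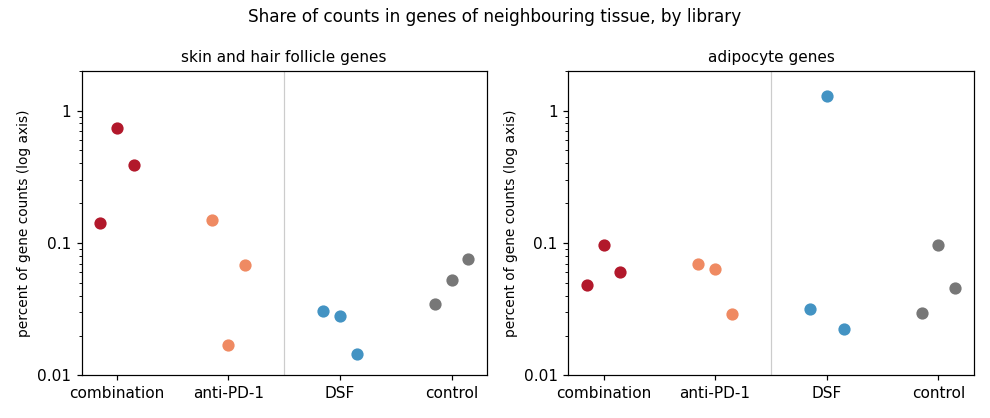
Percent of all gene counts taken by skin and hair follicle genes (left) and adipocyte genes (right) in each library, on a log axis. Each point is 1 library, with both anti-PD-1-treated groups left of the line and both anti-PD-1-free groups right of it. Skin shares in combination tumours lie above every DSF and control library, and the single high adipocyte value is DSF replicate 2 at 1.28%.

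Of 18433 genes in the table, 14144 had enough counts to be tested. Averaged over both DSF strata, no gene passed an adjusted p of 0.05 for anti-PD-1 treatment in the edgeR quasi-likelihood fit (0% of genes called). The smallest adjusted p was 0.160 and was shared by 143 genes. Genes with an unadjusted p under 0.05 numbered 922 with higher values in anti-PD-1-treated tumours (6.52% of genes tested) and 500 with lower values (3.54%), against 707 expected by chance in both directions. The DESeq2 Wald test on the same genes called 321, of which 278 were higher and 43 lower. Within the strata the picture differed. Combination against DSF gave 263 calls (1.86% of genes tested), of which 227 genes rose and 36 fell (1.6% and 0.255%). Anti-PD-1 against control gave none by edgeR or DESeq2, and 245 genes had an unadjusted p under 0.05. The 263 calls of the DSF stratum changed with single libraries. Among these were anti-PD-1 and control libraries, which enter this contrast through the shared estimate of the spread. None was left on omitting any 1 of combination replicates 2 and 3, DSF replicate 3, anti-PD-1 replicate 3 and control replicate 2, or with the skin and adipocyte scores in the model. There were 2 without control replicate 1, 28 without DSF replicate 1, 105 without control replicate 3, 467 and 454 on omitting anti-PD-1 replicate 1 or 2, and 601 without DSF replicate 2. The skin score (mean log2 CPM of the list, centred per gene) was 1.23, 2.76 and 2.33 in combination and -1.24, -1.31 and -2.58 in DSF tumours. It separated these groups fully, so skin and treatment cannot be told apart there in fits with this score. Over both strata the count of calls was 16 on omitting anti-PD-1 replicate 2 and 1 on omitting its replicate 3. A test of the difference between strata called no gene by edgeR, with 1754 at an unadjusted p under 0.05, and 235 by DESeq2. It was 19 by edgeR without anti-PD-1 replicate 1 and 4 without DSF replicate 1.

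The 2 strata share no library. Across the 14144 genes, which are not independent replicates, the log2 fold changes in both strata had a Pearson's r of 0.16 and a Spearman's rho of 0.02. Their sign was the same for 6780 genes (47.9%). With DSF the 3 treated libraries lay wholly above the 3 untreated ones in 12.3% of genes tested and wholly below in 10.8%. Without DSF these shares were 2.86% and 2.82%. Such genes are called apart below. Log2 fold changes were above 0 in 47.3% of genes tested over both strata. With DSF 46.2% were above 0 and 53.8% below, and without DSF 50.5% and 49.5%. For the difference between strata 47.5% were above 0 and 52.5% below.

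Type I interferon-induced genes were higher in anti-PD-1-treated than in anti-PD-1-free tumours of the same DSF stratum, with and without DSF. Of 41 listed genes 39 were tested (Mx1 and Mx2 were not analysed here), and 38 had a positive log2 fold change over both strata, with a median of 0.42 against -0.01 over all genes tested. At an unadjusted p under 0.05, 33 of the 39 were higher, where 6.52% of all genes were. None passed adjustment by edgeR, and DESeq2 called 18 of them higher. In the DSF stratum 38 of 39 were positive with a median of 0.45, and 5 rose (Ifit2, Ifi44, Ifi44l, Parp14 and Samhd1, where 1.6% of all genes were called higher). Without DSF 37 of 39 were positive with a median of 0.27, and 15 were higher at an unadjusted p under 0.05, where 0.94% of all genes were. In the same direction in both strata were 36 of the 39. Combination and control tumours overlapped in the list's share of counts, at 0.321 to 0.336% and 0.320 to 0.409%. The share was 0.344 to 0.441% in anti-PD-1 and 0.195 to 0.233% in DSF tumours. Anti-PD-1 and control tumours thus overlapped in it too, while combination tumours lay above DSF tumours. Members apart with treated libraries above numbered 31 of 39 with DSF, where 12.3% of all genes were. Without DSF they numbered 11, where 2.86% of all genes were. In 0 of the 39 members did all 6 treated libraries lie above all 6 untreated ones.

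Ifit2, which binds viral RNA and restrains its translation, had 30.9, 32.9 and 30.6 CPM in combination and 56.2, 45.4 and 41.9 CPM in anti-PD-1 tumours, against 19.9, 15 and 15.7 CPM in DSF tumours and 34.7, 23.7 and 32.9 CPM in controls. Every treated library exceeded every library of its own stratum's anti-PD-1-free group, while combination tumours overlapped control tumours and DSF tumours lay lowest. Its log2 fold change was 0.78 ± 0.12 over both strata (SE, adjusted p = 0.160, edgeR), 0.90 ± 0.17 with DSF (adjusted p = 0.0409) and 0.65 ± 0.17 without it (adjusted p = 0.999). Cmpk2, a nucleotide kinase of mitochondria, had 35.6, 33.1 and 28.8 CPM in combination and 70.4, 79 and 46.3 CPM in anti-PD-1 tumours, against 22.1, 17 and 18.5 CPM in DSF tumours and 37.8, 33.9 and 32.7 CPM in controls. Its groups were likewise apart within each stratum, with log2 fold changes of 0.76 ± 0.18 with and 0.91 ± 0.18 without DSF. Ifit3, a partner of IFIT1 in RNA binding, had 18.5, 19.1 and 15.8 CPM in combination and 41.2, 35.3 and 21.5 CPM in anti-PD-1 tumours, against 10.2, 9.43 and 7.41 CPM in DSF tumours and 20.2, 16.8 and 20.2 CPM in controls, with log2 fold changes of 0.98 with and 0.78 without DSF. Ifih1, the cytosolic RNA sensor MDA5, had 55.9, 60.2 and 56.5 CPM in combination and 84, 95.3 and 77 CPM in anti-PD-1 tumours, against 45.9, 39.3 and 41.1 CPM in DSF tumours and 50.4, 65.8 and 63.4 CPM in controls, with log2 fold changes of 0.45 with and 0.51 without DSF. For both genes the 3 treated libraries lay above the 3 untreated ones in each stratum. With DSF Ifi44, a cytoplasmic interferon-induced protein, was apart, at 81.9, 89.5 and 78.9 CPM in combination tumours, against 47.9, 37.2 and 44.1 CPM in DSF tumours, where it rose by 0.95 ± 0.19 on the log2 scale (adjusted p = 0.0409, edgeR). Without DSF its groups overlapped, at 132, 167 and 105 CPM in anti-PD-1 tumours, against 96.7, 118 and 77.6 CPM in control tumours. Ifit3 and Ifit3b are near-identical copies, and reads could be split between them in the authors' counting.

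**Figure D2:**
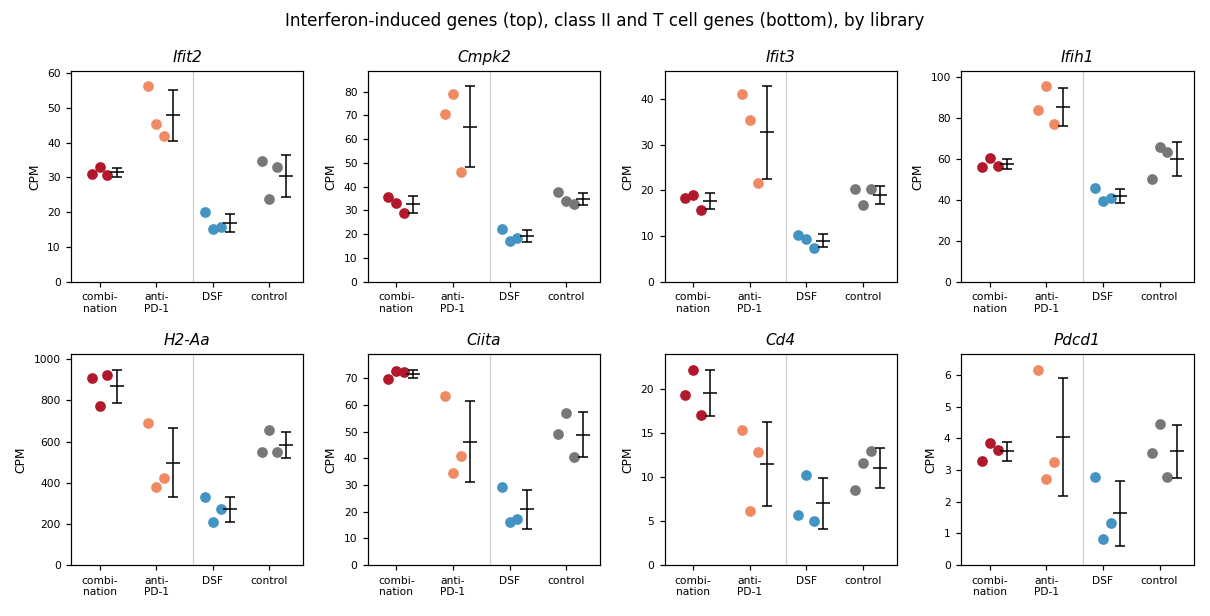
CPM of 4 interferon-induced genes (top row) and of the class II genes H2-Aa and Ciita with Cd4 and Pdcd1 (bottom row). Points are libraries, black marks the mean ± SD of 3 libraries per group, and the line parts anti-PD-1-treated from anti-PD-1-free groups. The upper genes are higher in combination than in DSF and higher in anti-PD-1 than in control tumours, while H2-Aa and Ciita in anti-PD-1 tumours overlap control tumours.

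Looking over all genes for those whose treated libraries lay above the untreated ones in both strata gave 31 genes (0.219% of genes tested). A similar number, 34 genes (0.24%), lay below in both strata. Of the 31 above, 9 belonged to the type I interferon list, 23.1% of its 39 members. No member of any of the other 28 lists was among the 31. Beyond Ifit2, Cmpk2, Ifit3 and Ifih1 they were Ifit1, Oas1a, Ddx58, Parp14 and Dtx3l, named after their values were seen. Ifit1 averaged 15 ± 3.95 CPM in combination and 26.8 ± 5.65 CPM in anti-PD-1 tumours, against 8.85 ± 1.48 CPM in DSF tumours and 17.4 ± 1.87 CPM in controls (SD, n = 3 each). Oas1a, an activator of RNase L, averaged 36.3 ± 1.54 CPM in combination and 61.7 ± 14 CPM in anti-PD-1 tumours, against 28.6 ± 5.41 CPM in DSF tumours and 44 ± 5.11 CPM in controls. Ddx58, the RNA sensor RIG-I, averaged 88 ± 6.47 CPM in combination and 106 ± 20.2 CPM in anti-PD-1 tumours, against 65.5 ± 4.38 CPM in DSF tumours and 75.8 ± 10.8 CPM in controls. Their log2 fold changes over both strata were 0.69 ± 0.16, 0.42 ± 0.12 and 0.45 ± 0.10 (SE). The single member with a negative value over both strata was Isg20, at -0.02. Samhd1, a nucleotide hydrolase that restricts viruses, stood at 0.74 with DSF and -0.12 without it. The list's median over both strata ran between 0.35 and 0.48 when each library was left out in turn. It was 0.51 with the skin and adipocyte scores as covariates, with 39 of 39 members positive, and 0.40 without both libraries that stood apart.

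The regions upstream of these genes were searched for the core of the interferon-stimulated response element, taken as GAAA repeated after any 2 bases, in the 250 bases before each RefSeq start (GRCm38.p6), on both strands. It occurred in 12 of the 31 list members with a promoter entry (38.7%), against 936 of 27025 genes with one (3.46%). Shown are Ifit1, Ifit3 and Oas1a, which were apart in both strata and hold it in their windows. The windows of other members are not shown. Matches are in capitals, and overlapping matches in Oas1a are joined. Capitals mark letters only and no bound site.
Ifit1, chr19:34640639-34640888, plus strand: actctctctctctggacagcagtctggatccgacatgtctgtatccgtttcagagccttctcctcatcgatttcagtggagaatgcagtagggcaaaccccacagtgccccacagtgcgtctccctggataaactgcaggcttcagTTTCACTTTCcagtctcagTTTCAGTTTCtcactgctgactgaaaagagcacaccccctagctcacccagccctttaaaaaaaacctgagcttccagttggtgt
Ifit3, chr19:34583279-34583528, plus strand: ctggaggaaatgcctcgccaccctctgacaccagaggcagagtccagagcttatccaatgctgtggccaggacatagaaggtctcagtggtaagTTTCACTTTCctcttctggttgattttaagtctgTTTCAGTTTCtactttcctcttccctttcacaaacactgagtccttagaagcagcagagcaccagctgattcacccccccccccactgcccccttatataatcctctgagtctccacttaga
Oas1a, chr5:120907526-120907775, minus strand: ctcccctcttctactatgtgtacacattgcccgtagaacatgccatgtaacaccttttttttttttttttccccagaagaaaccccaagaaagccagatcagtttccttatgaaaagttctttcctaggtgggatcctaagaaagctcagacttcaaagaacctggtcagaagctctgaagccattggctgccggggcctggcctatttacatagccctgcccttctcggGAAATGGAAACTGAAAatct

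**Figure D3:**
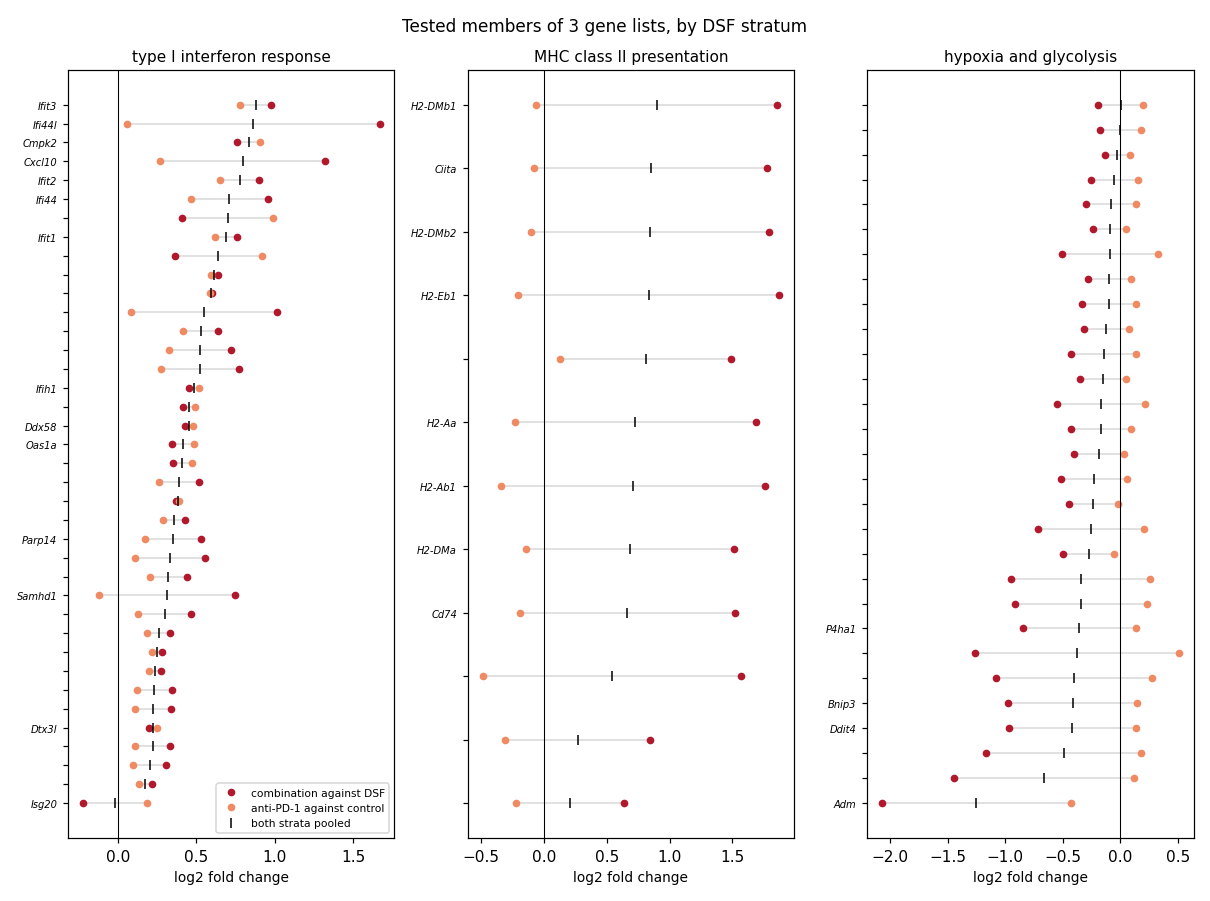
Log2 fold change of tested members of the type I interferon list (38 of its 39 genes), the MHC class II list (all 12) and the hypoxia and glycolysis list (all 29), in rows, with genes named in the text labelled. Dark red points are combination against DSF, orange points anti-PD-1 against control, and black marks both strata pooled. Interferon members lie right of 0 in both strata for 36 of 38 genes, while class II and hypoxia members lie on opposite sides of 0 for most genes.

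The antibody's target and its ligands did not pass the test over both strata. Pdcd1 had 3.27, 3.87 and 3.63 CPM in combination and 6.17, 2.72 and 3.25 CPM in anti-PD-1 tumours, against 2.77, 0.812 and 1.32 CPM in DSF tumours and 3.53, 4.46 and 2.77 CPM in controls. Combination tumours lay above DSF tumours while anti-PD-1 tumours overlapped control tumours, and the pooled log2 fold change was 0.65 ± 0.32 (adjusted p = 0.523, edgeR). The antibody binds protein, so its target's mRNA is no check of the labels. Cd274 had 100.4, 89 and 95.2 CPM in combination and 119, 107 and 85.7 CPM in anti-PD-1 tumours, against 81.1, 45 and 72.7 CPM in DSF tumours and 99.7, 120.0 and 70.9 CPM in controls. The groups were apart with DSF and overlapped without it, with a pooled log2 fold change of 0.31 ± 0.16 (adjusted p = 0.556, edgeR). Pdcd1lg2 stood at 0.51 ± 0.21 pooled (adjusted p = 0.418, edgeR), 1.2 with DSF and -0.18 without it. Of 21 checkpoint receptors and ligands 17 were positive over both strata with a median of 0.31. At an unadjusted p under 0.05, 8 were higher and 1 was lower, where 6.52% and 3.54% of all genes were. Cd86, a ligand of CD28 and CTLA-4, rose with DSF by 0.88 ± 0.18 (adjusted p = 0.0416, edgeR). Ctla4, the inhibitory receptor that competes with CD28, had 7.42, 8.24 and 8.34 CPM in combination tumours, against 3.87, 1.75 and 3.67 CPM in DSF tumours, and 9.61, 4.11 and 6.62 CPM in anti-PD-1 tumours, against 5.48, 4.52 and 7.30 CPM in control tumours. The groups with DSF were apart and those without it overlapped. Btla, another inhibitory receptor of lymphocytes, stood at 1.72 with and 0.02 without DSF. The 1 member lower at an unadjusted p under 0.05 was Cd276 (B7-H3), at -0.31 ± 0.14 pooled, -0.33 with and -0.29 without DSF. With the skin and adipocyte scores as covariates, the pooled checkpoint median was 0.035, with 11 of 21 positive and 0 higher at an unadjusted p under 0.05. In that fit the median with DSF was 0.15, and Pdcd1 stood at -0.21 with DSF.

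T cell genes had higher values in combination than in DSF tumours and about equal values in anti-PD-1 and control tumours. All 27 tested T cell receptor and identity genes were positive over both strata, with a median of 0.47. At an unadjusted p under 0.05, 10 were higher, where 6.52% of all genes were. The median was 0.97 with DSF, where 1 gene rose (1.6% of all genes did), and -0.03 without it, where 12 of 27 were positive. Cd4, the co-receptor of helper T cells, had 19.4, 22.2 and 17 CPM in combination and 15.4, 6.17 and 12.9 CPM in anti-PD-1 tumours, against 5.68, 10.3 and 5.06 CPM in DSF tumours and 8.53, 11.6 and 13 CPM in controls. Combination libraries exceeded all DSF libraries and anti-PD-1 libraries overlapped control ones, with a pooled log2 fold change of 0.77 ± 0.25 (adjusted p = 0.280, edgeR). Cd8a, the co-receptor of cytotoxic T cells, had 12.6, 12.6 and 16.9 CPM in combination tumours, against 11, 4.25 and 8.51 CPM in DSF tumours, and 17.7, 9.98 and 9.15 CPM in anti-PD-1 tumours, against 12.8, 17.3 and 9.53 CPM in control tumours. The pattern was the same, and its pooled value was 0.36 ± 0.26 (adjusted p = 0.689, edgeR). Cd3e, a chain of the T cell receptor complex, stood at 0.44 pooled, 0.97 with and -0.10 without DSF. Bcl11b, a T cell transcription factor that keratinocytes also express, was the 1 gene that rose with DSF, with 9.93, 15.7 and 18.5 CPM in combination tumours, against 3.48, 3.12 and 2.27 CPM in DSF tumours (log2 fold change 2.31 ± 0.49, adjusted p = 0.0433, edgeR). The regulatory T cell list (11 genes tested) had a pooled median of 0.41, and its transcription factor Foxp3 stood at 1.52 with and 0.09 without DSF. Tnfrsf18, the costimulatory receptor GITR, stood at 1.48 and 0.10 in the same order. With the skin and adipocyte covariates, the pooled T cell median was -0.05, with 11 of 27 members positive, and the regulatory T cell median was -0.10. With DSF that fit gave a T cell median of -0.017, with 13 of 27 positive, and values of -0.37 for Cd3e, -0.32 for Foxp3 and -0.31 for Bcl11b. Skin shares moved with these genes (0.141 to 0.738% in combination against 0.0144 to 0.0306% in DSF tumours), and their part in the result was not tested.

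The cytotoxic effector genes gave mixed values. Gzmb, encoding granzyme B, had 37.4, 34.1 and 33.8 CPM in combination and 30.8, 44.5 and 39 CPM in anti-PD-1 tumours, against 36.7, 23.5 and 40.5 CPM in DSF tumours and 46.2, 77.5 and 29.9 CPM in controls, all overlapping, and a pooled log2 fold change of -0.18 ± 0.21 (adjusted p = 0.821, edgeR). Prf1, the pore-forming perforin, stood at 0.06 ± 0.31 pooled (adjusted p = 0.970, edgeR). Ifng, the interferon gamma gene, had 3.33, 4.08 and 5.06 CPM in combination and 3.97, 1.57 and 2.11 CPM in anti-PD-1 tumours, against 1.74, 0.500 and 1.10 CPM in DSF tumours and 4.26, 6.07 and 2.18 CPM in controls. Combination libraries exceeded all DSF libraries, and anti-PD-1 libraries overlapped control ones and lay lower on average, for log2 fold changes of 1.89 ± 0.53 with and -0.71 ± 0.51 without DSF. Of 23 cytotoxic and NK cell genes 16 were positive over both strata (median 0.21). With DSF 2 rose, where 1.6% of all genes did, and none passed without it. The 2 were the NK cell receptor gene Klrb1c and Klrk1, the activating receptor NKG2D. Klrk1 had 19.5, 16.6 and 23.2 CPM in combination tumours, against 7.61, 2.93 and 3.89 CPM in DSF tumours (log2 fold change 2.04 ± 0.40, adjusted p = 0.0409, edgeR). Without DSF it had 21.1, 8.16 and 12.7 CPM in anti-PD-1 tumours, against 13, 17.7 and 12 CPM in control tumours, which overlapped. Xcl1, a chemokine that attracts cross-presenting dendritic cells, had positive values in both strata, at 2.14 with and 0.97 without DSF.

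MHC class II presentation genes were higher in combination than in DSF tumours and not in anti-PD-1 than in control tumours. In the DSF stratum all 12 tested members were positive with a median of 1.63. Of these 8 rose, where 1.6% of all genes did: H2-Aa, H2-Ab1, H2-Eb1, H2-DMa, H2-DMb1, H2-DMb2, Cd74 and Ciita. Without DSF the median was -0.20 and 1 of 12 was positive. The difference between strata had a median of 1.88 and was positive for all 12, with 11 at an unadjusted p under 0.05 (7.05% of all genes were) and none past adjustment by edgeR. H2-Aa, the class II alpha chain, had 908, 774 and 922 CPM in combination and 692, 381 and 421 CPM in anti-PD-1 tumours, against 331, 208 and 272 CPM in DSF tumours and 548, 655 and 547 CPM in controls. The order of the group means was combination, control, anti-PD-1 and DSF, and control and anti-PD-1 libraries overlapped. Its log2 fold change was 1.68 ± 0.23 with DSF (adjusted p = 0.0387, edgeR) and -0.23 ± 0.22 without it (adjusted p = 0.999), with a difference of 1.91 ± 0.32 (adjusted p = 0.232). Ciita, the transactivator of these genes, had 69.8, 72.7 and 72.3 CPM in combination and 63.4, 34.5 and 40.7 CPM in anti-PD-1 tumours, against 29.2, 16 and 17.4 CPM in DSF tumours and 49.1, 57.1 and 40.5 CPM in controls. It rose by 1.78 ± 0.26 with DSF (adjusted p = 0.0387, edgeR) and stood at -0.08 ± 0.25 without it. H2-Eb1, a class II beta chain, rose by 1.87 ± 0.26 with DSF, and H2-Ab1 by 1.76 ± 0.25. H2-Ea-ps, annotated as a pseudogene of the class II alpha family, followed them at 1.84 ± 0.24, and its reads may be shared with related genes. With the skin and adipocyte covariates, the class II median with DSF was 0.96, with 10 of 12 positive, and no member passed. Without both libraries that stood apart it was 1.54.

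Class II promoters carry a Y box, a CCAAT sequence (ATTGG on the other strand) bound by NF-Y. These letters occurred in 7 of 9 class II members with a promoter entry (77.8%) and in 10133 of 27025 genes (37.5%), again in the 250 bases before the RefSeq start on both strands. The windows of H2-Aa and H2-Eb1 are shown with the matches in capitals.
H2-Aa, chr17:34287824-34288073, minus strand: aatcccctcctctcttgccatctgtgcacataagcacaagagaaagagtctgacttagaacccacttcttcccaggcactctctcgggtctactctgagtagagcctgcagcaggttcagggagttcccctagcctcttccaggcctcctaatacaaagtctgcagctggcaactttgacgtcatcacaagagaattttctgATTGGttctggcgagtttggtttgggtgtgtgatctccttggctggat
H2-Eb1, chr17:34305617-34305866, plus strand: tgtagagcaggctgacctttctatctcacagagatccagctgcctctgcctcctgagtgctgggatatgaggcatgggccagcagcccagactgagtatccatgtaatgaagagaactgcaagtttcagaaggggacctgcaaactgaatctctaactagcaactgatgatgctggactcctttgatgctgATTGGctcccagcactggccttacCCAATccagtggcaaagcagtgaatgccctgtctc

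Interferon gamma response genes followed class II rather than the type I list. Of 30 tested, 29 were positive over both strata with a median of 0.46. At an unadjusted p under 0.05, 19 were higher, where 6.52% of all genes were. The median was 0.95 with DSF, where Gbp8, Irgm2, Ciita, Socs1 and Batf2 rose (1.6% of all genes did). Without DSF it was -0.08, and 9 were positive. Gbp8, an interferon-induced guanylate-binding protein, averaged 50.1 ± 5.02 CPM in combination and 32.7 ± 9.90 CPM in anti-PD-1 tumours, against 17.7 ± 4.63 CPM in DSF tumours and 35.8 ± 9.19 CPM in controls. Socs1, a feedback inhibitor of cytokine signalling, rose by 1.02 ± 0.20 with DSF and stood at -0.18 ± 0.20 without it. The chemokine Cxcl10, a ligand of CXCR3 that both interferons induce, had 47.4, 47.7 and 59.4 CPM in combination and 66.5, 40.5 and 51.2 CPM in anti-PD-1 tumours, against 30.8, 11.4 and 19.6 CPM in DSF tumours and 50.2, 43.5 and 37.6 CPM in controls. It was apart with DSF and overlapped without it, for log2 fold changes of 1.32 ± 0.30 with and 0.27 ± 0.29 without DSF. Nos2, inducible nitric oxide synthase, was the exception, at -0.16 ± 0.41 over both strata, with -0.95 with DSF and 0.63 without it. With the covariates the pooled median of this list was 0.41, with 27 of 30 positive and 1 higher at an unadjusted p under 0.05. With DSF that fit gave a median of 0.85, with 3 higher at that p (28 in the main fit) and no member called. In the class I presentation list (21 genes) the median was 0.17. At an unadjusted p under 0.05, 3 were higher, where 6.52% of all genes were. Among the 3 were the immunoproteasome subunit Psmb10 at 0.32 ± 0.14 and H2-M3 at 0.30 ± 0.11. Without DSF replicate 2 the class I median was 0.065 over both strata and 0.090 with DSF. Among 15 chemokines of the CXCR3 axis and T cell attraction the pooled median was 0.48, with 1.11 in the DSF stratum and 0.03 without DSF. With the covariates it was 0.014 over both strata, with 9 of 15 positive. Ccl21a, which guides lymphocytes and dendritic cells through CCR7, had 12.1, 23.3 and 14.4 CPM in combination and 18.9, 3.02 and 4.21 CPM in anti-PD-1 tumours, against 2.39, 4.31 and 1.32 CPM in DSF tumours and 2.62, 4.27 and 1.94 CPM in controls, with positive log2 fold changes in both strata (2.62 ± 0.69 and 1.56 ± 0.67). Ccl21a has near-identical copies in the mouse genome, so its counts are uncertain.

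**Figure D4:**
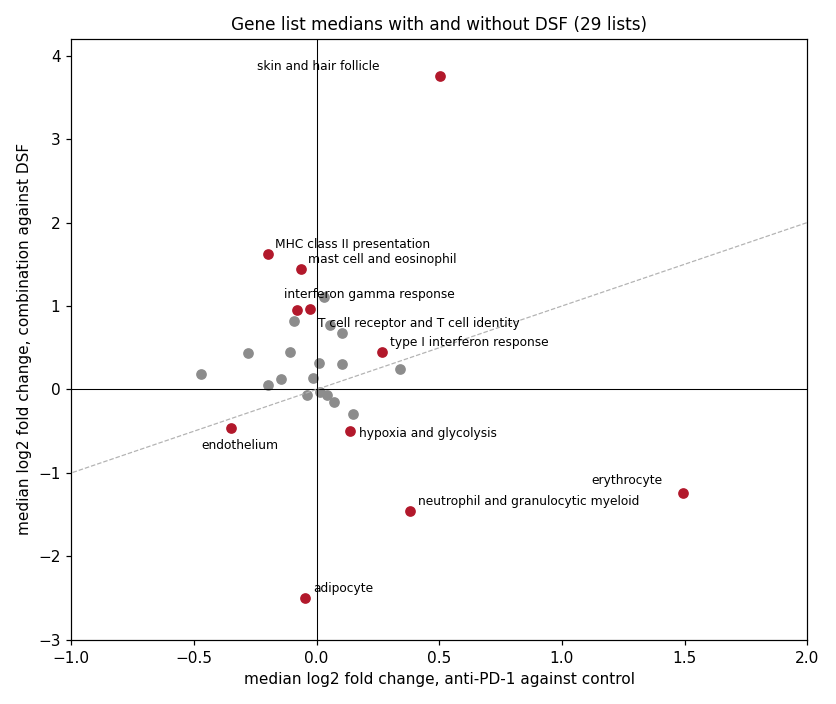
Median log2 fold change of each of the 29 gene lists, with anti-PD-1 against control on the horizontal axis and combination against DSF on the vertical axis. Points are lists, red points are named, and the dashed line marks equal values. The type I interferon list (0.27 and 0.45) is positive on both axes, the class II list (-0.20 and 1.63) on the vertical axis, and the neutrophil list (0.38 and -1.46) on the horizontal axis.

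Dendritic cell and mast cell genes also had higher values with DSF and not without it. Of 20 dendritic cell genes 18 were positive over both strata (median 0.38), with medians of 0.83 with DSF and -0.09 without it. Siglech, a marker of plasmacytoid dendritic cells, the main producers of type I interferon, rose with DSF, with 2.92, 3.50 and 4.17 CPM in combination tumours, against 0.516, 0.562 and 0.660 CPM in DSF tumours (log2 fold change 2.59 ± 0.56, adjusted p = 0.0433, edgeR). Without DSF it overlapped, at 4.03, 0.847 and 1.75 CPM in anti-PD-1 tumours, against 1.28, 2.17 and 3.06 CPM in control tumours. Xcr1, the receptor for XCL1 on cross-presenting dendritic cells, stood at 1.73 with and 0.19 without DSF. The 13 mast cell and eosinophil genes had medians of 1.45 and -0.07 in the same order, and Mcpt4, a chymase of connective tissue mast cells, had 96.8, 59.8 and 133 CPM in combination tumours, against 37, 30.9 and 21.5 CPM in DSF tumours. Mcpt1, a mucosal mast cell chymase, stood at 2.88 and 0.66. With the covariates the pooled medians of the dendritic and mast cell lists were -0.03 and -0.09. Dendritic cells and mast cells also reside in skin, and the part of skin tissue in these values was not tested.

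Of 23 macrophage genes, 15 were positive with DSF (median 0.44) and 2 without it (median -0.28). Over both strata the median was 0.0016, which was 0.26 without DSF replicate 2 and -0.29 with the covariates, where 2 of 23 were positive. Cd14, the lipopolysaccharide co-receptor, fell with DSF, with 48.2, 43.5 and 32.3 CPM in combination tumours, against 85.4, 61.3 and 81.8 CPM in DSF tumours (log2 fold change -0.88 ± 0.18, adjusted p = 0.0416, edgeR), and stood at -0.08 ± 0.18 without it. Fcgr1, the high-affinity IgG receptor, which interferon gamma induces, stood at 0.99 with and -0.01 without DSF. Pf4 (-0.71 ± 0.23 pooled) and Ppbp (-1.99 ± 0.48), chemokines of platelets that myeloid cells also make, had lower pooled values. Ppbp fell with DSF, with 0.526, 0.583 and 0.119 CPM in combination tumours, against 1.55, 10.1 and 5.13 CPM in DSF tumours. Timd4, a receptor for phosphatidylserine on resident macrophages, stood at 1.44 with and -0.35 without DSF. Of 19 listed B and plasma cell genes 11 were tested, with a pooled median of 0.30.

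Neutrophil genes ran opposite to class II. Of 26 tested, 4 were positive over both strata with a median of -0.49. With DSF the median was -1.46 and S100a8, S100a9, Retnlg and Mmp9 fell (0.255% of all genes were called lower), while without DSF it was 0.38 and 19 of 26 were positive. Retnlg, a secreted protein of mature neutrophils, had 0.876, 1.60 and 1.37 CPM in combination and 12.6, 19.7 and 19.9 CPM in anti-PD-1 tumours, against 19.2, 20.5 and 12 CPM in DSF tumours and 19.7, 8.42 and 2.35 CPM in controls. Each combination library was below every other library, and anti-PD-1 and control libraries overlapped. It fell by 3.75 ± 0.64 with DSF (adjusted p = 0.0409, edgeR) and stood at 0.77 ± 0.55 without it (adjusted p = 0.999). Mmp9, the gelatinase of neutrophil granules, had 102, 65.5 and 65.9 CPM in combination and 197, 207 and 141 CPM in anti-PD-1 tumours, against 246, 323 and 254 CPM in DSF tumours and 352, 153 and 125 CPM in controls. Combination libraries lay below all DSF libraries and anti-PD-1 overlapped control, and Mmp9 fell by 1.82 ± 0.35 with DSF (adjusted p = 0.0409, edgeR). S100a8, a subunit of calprotectin, averaged 20.8 ± 5.34 CPM in combination and 91.7 ± 12.2 CPM in anti-PD-1 tumours, against 73.9 ± 11.1 CPM in DSF tumours and 51.7 ± 33.8 CPM in controls. The 4 members with positive pooled values were Asprv1, BC100530, Stfa2 and Stfa3. Asprv1, also an epidermal protease, rose by 2.63 ± 0.46 with DSF, and BC100530, a stefin, stood at 3.38 ± 0.90. The neutrophil attractant Cxcl3 had 3.91, 2.55 and 2.03 CPM in combination tumours, against 11.8, 14.5 and 22.7 CPM in DSF tumours, and 3.97, 5.02 and 8.30 CPM in anti-PD-1 tumours, against 5.30, 8.24 and 1.29 CPM in control tumours. Its log2 fold change was -2.52 ± 0.57 with and 0.22 ± 0.55 without DSF. Among 26 inflammatory cytokine genes the pooled median was -0.06. Il23a and Il12b, which encode partner subunits of IL-23 (p19 and p40), differed in direction, at -0.63 ± 0.23 and 1.16 ± 0.39 pooled. With the covariates the neutrophil median was -0.29 over both strata and -0.98 with DSF.

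Hypoxia and glycolysis genes had lower values in combination than in DSF tumours. Of 29 members 1 was positive over both strata (median -0.19). With DSF none was positive, the median was -0.49, and 20 were lower at an unadjusted p under 0.05 (8.4% of all genes were). Bnip3, P4ha1 and Ddit4 fell with DSF (0.255% of all genes did). Without DSF 26 were positive with a median of 0.14, none was past an unadjusted p of 0.05, and the median was -0.024 without control replicate 3. The difference between strata was lower for 17 at an unadjusted p under 0.05 (5.35% of all genes were), and none passed adjustment by edgeR. Ddit4, an inhibitor of mTORC1 induced by low oxygen, had 19.6, 24.4 and 23.4 CPM in combination and 25.1, 38 and 26.7 CPM in anti-PD-1 tumours, against 44.1, 40.7 and 47.1 CPM in DSF tumours and 29.7, 31.7 and 20.4 CPM in controls. It was apart with DSF, where it fell by 0.97 ± 0.19 with DSF (adjusted p = 0.0416, edgeR), and overlapped without it, at 0.14 ± 0.19. Adm, the vasodilator adrenomedullin, stood at -2.07 ± 0.62 and -0.43 ± 0.59 in the same order. With the covariates the pooled median was 0.02 and that with DSF -0.17.

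Endothelial genes had negative values in both strata, with 0 of 22 positive over both (median -0.43) and 20 of 22 of like sign with and without DSF (medians -0.46 and -0.35). Without DSF replicate 2, the library rich in adipocyte genes, the pooled median was -0.0067 and that with DSF 0.29. Without control replicate 2 the median in the stratum free of DSF was 0.031. With the covariates the median with DSF was 0.063. Esm1, a gene of sprouting endothelial tips, had 0.584, 0.802 and 0.417 CPM in combination tumours, against 1.55, 2.25 and 3.89 CPM in DSF tumours, and 1.01, 3.99 and 1.75 CPM in anti-PD-1 tumours, against 2.50, 3.10 and 1.47 CPM in control tumours. The first pair was apart and the second overlapped. Apln, the apelin ligand, stood at -0.47 ± 0.18 pooled. Adipocyte genes themselves had a pooled median of -1.19, which was 1.14 without DSF replicate 2. Car3, an adipocyte and muscle carbonic anhydrase, had 89.2, 173 and 89.8 CPM in combination tumours, against 31.4, 3732 and 23.4 CPM in DSF tumours, and Pnpla2, a triglyceride lipase, had 99, 107 and 111 CPM in combination tumours, against 110.4, 541 and 90.2 CPM in DSF tumours.

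Proliferation genes (32) had a pooled median of 0.06, with Mcm5 at 0.20 ± 0.09 and Cdk1 at -0.15 ± 0.07, and oxidative phosphorylation genes (31) one of -0.05, with Sdhc at -0.29 ± 0.11. Fibroblast and matrix genes had a median of -0.10 (0.34 without DSF replicate 2), in which Timp2 stood at -0.25 ± 0.09 and Postn at 0.58 ± 0.33. The median of apoptosis and p53 target genes was 0.02, with Casp4, the inflammatory caspase, at 0.20 ± 0.07. NF-kB target genes had a median of -0.02. Among them Bcl2a1b and Bcl2a1d, near-identical survival genes whose reads may be shared, rose with DSF by 1.07 ± 0.24 and 1.23 ± 0.19, while Bcl3 (-0.30 ± 0.09) and Ikbke (-0.23 ± 0.08) had lower pooled values. Mesenchymal transition genes had a median of -0.12, with Mmp3 at -0.25 ± 0.13. Complement genes (16) had a pooled median of 0.02, with 0.13 in the DSF stratum and -0.15 without DSF, and the pooled median was 0.38 without DSF replicate 2. The 17 muscle genes stood at -0.0020 pooled, 0.18 with and -0.47 without DSF. The 4 erythrocyte genes had medians of 0.15 pooled (0.72 without DSF replicate 2), -1.24 with DSF and 1.49 without it, and all 4 were positive without DSF. None of the 4 had an unadjusted p under 0.05 there. The list's shares of counts overlapped, at 0.00619 to 0.0330% in anti-PD-1 and 0.00303 to 0.0107% in control tumours. Of 21 epithelial genes 10 were positive, and 3 rose with DSF (1.6% of all genes did). The 3 included Rab25 (4.50, 33.8 and 13.3 CPM in combination tumours, against 0.774, 1.37 and 0.587 CPM in DSF tumours), which the epidermis also expresses. Krt19 (-1.23 ± 0.45 pooled) and Spint2 (-0.27 ± 0.10) had lower values.

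The 15 genes with the smallest p of each direction were named by rule, and none passed adjustment (adjusted p of 0.160 to 0.162, edgeR). Those with higher values in treated tumours were 5 interferon-induced genes (Ifit2, Cmpk2, Ifih1, Ifit3 and Ifi44) and 10 others. Most of the others are genes of the cornified epidermis: Flg, Lce1a2, Lce1b, Lce1c, Calm4, Lypd3 and Asprv1. Flg, the precursor of filaggrin, had 27.6, 59.5 and 99.6 CPM in combination and 22.4, 3.51 and 11.4 CPM in anti-PD-1 tumours, against 3.36, 0.812 and 1.03 CPM in DSF tumours and 7.25, 9.72 and 8.35 CPM in controls. Combination libraries lay above all 9 others, and anti-PD-1 and control libraries overlapped. The Lce1 genes are close copies, and their reads may be shared. All 24 tested skin and hair follicle genes were positive in both strata. Their median was 3.75 with DSF, where 15 rose (1.6% of all genes did), and 0.50 without it, where none passed. Without anti-PD-1 replicate 1 the median in tumours without DSF was -0.21. The remaining higher genes were Nkpd1, Rapgefl1 and Ceacam19, at 2.32 ± 0.41, 1.85 ± 0.34 and 1.79 ± 0.33 pooled. Across all fits their pooled values went down to 0.68, 0.45 and 0.66 in that order. When each library was left out in turn, the lowest were 2.10, 1.61 and 1.48.

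Among the 15 with lower values, Ampd3, an AMP deaminase, had the smallest p, with 46.5, 45 and 44 CPM in combination and 58.4, 77 and 62.1 CPM in anti-PD-1 tumours, against 93.4, 83.7 and 103 CPM in DSF tumours and 70.1, 64.8 and 65.7 CPM in controls. It fell by 1.05 ± 0.11 with DSF (adjusted p = 0.0223, edgeR) and stood at -0.02 ± 0.11 without it, the smallest p for a difference between strata as well (-1.02 ± 0.16, adjusted p = 0.232). Papln, an extracellular matrix protein, had 7.47, 7.29 and 7.75 CPM in combination and 8.60, 15.7 and 14.3 CPM in anti-PD-1 tumours, against 17.4, 26.1 and 20.5 CPM in DSF tumours and 22, 20.4 and 12.9 CPM in controls, with a pooled log2 fold change of -1.01 ± 0.18. Combination lay below DSF, and anti-PD-1 overlapped control. Arap3, a GTPase-activating protein for Arf6 and RhoA, was apart in both strata, with 88.6, 81.2 and 77.3 CPM in combination and 85.3, 105 and 100.1 CPM in anti-PD-1 tumours, against 115, 111 and 141 CPM in DSF tumours and 113, 145 and 118 CPM in controls. Its log2 fold changes were -0.47 ± 0.09 pooled, -0.57 ± 0.13 with DSF (adjusted p = 0.0499, edgeR) and -0.37 ± 0.13 without it. Casp6, an effector caspase, and Prdx6, a peroxiredoxin, were also apart in both strata, at -0.32 ± 0.08 and -0.37 ± 0.09 pooled. The others, Sccpdh, Ikbip, Gyg, Mxi1, Slc27a1, Tcp11l1, Klhl24, Ppbp, Mmp9 and Spred3, had pooled values between -1.99 (Ppbp) and -0.33 (Gyg). In Mxi1, a MAX-binding antagonist of MYC, the value came from the DSF stratum (-0.78 ± 0.12, against 0.00 ± 0.12 without DSF).

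**Figure D5:**
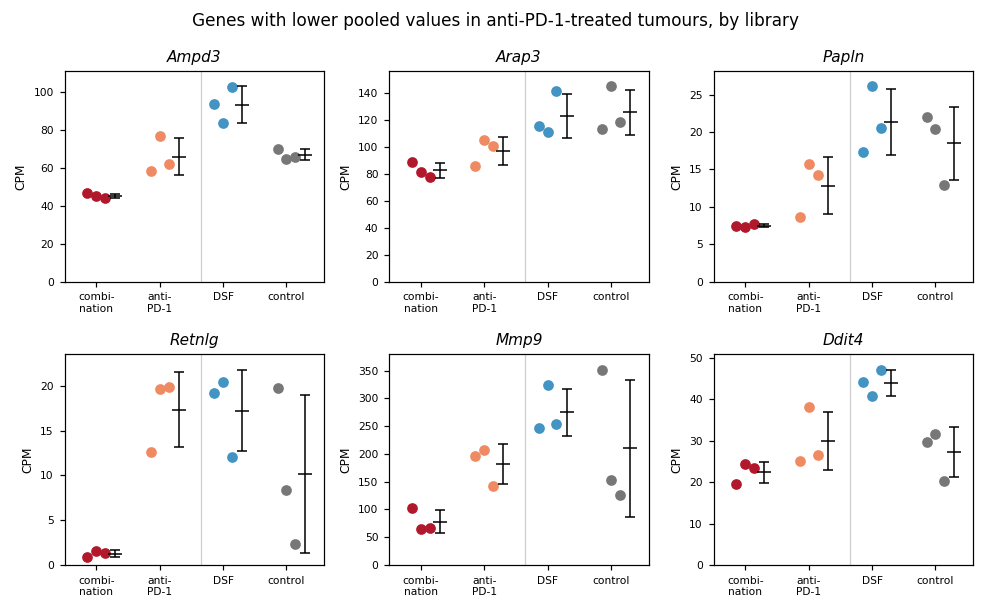
CPM of 6 genes with lower pooled values in anti-PD-1-treated tumours. Points are libraries, black marks the mean ± SD of 3 libraries per group, and the line parts treated from untreated groups. Combination lies below DSF in all 6 genes, and Arap3 is the 1 gene of the 6 in which anti-PD-1 libraries also lie below all control libraries.

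Taking the arms whole, the 6 treated libraries lay above the 6 untreated ones in 9 genes (0.0636% of genes tested) and below them in 12 (0.0848%). None of the 21 passed adjustment by edgeR. Those above included Nkpd1, with a lowest, median and highest of 1.2, 1.73 and 6.20 CPM in anti-PD-1-treated tumours, against 0.0733, 0.464 and 0.743 CPM in anti-PD-1-free tumours. Klri2, a killer cell lectin-like receptor, had 0.903, 1.12 and 1.55 CPM in anti-PD-1-treated tumours, against 0.293, 0.440 and 0.792 CPM in anti-PD-1-free tumours. P3h2, a collagen prolyl 3-hydroxylase, had 6.86, 8.70 and 11 CPM in anti-PD-1-treated tumours, against 3.37, 5.04 and 6.70 CPM in anti-PD-1-free tumours. The others above were Plekhf2, 3110082I17Rik, Mob3c, Mpzl3, 9930111J21Rik2 and Otub2. Those below included Arap3, with 77.3, 87 and 105 CPM in anti-PD-1-treated tumours, against 111, 117 and 145 CPM in anti-PD-1-free tumours, and Arsa, the lysosomal arylsulfatase A, with 70.5, 92.8 and 108 CPM in anti-PD-1-treated tumours, against 109, 112 and 132 CPM in anti-PD-1-free tumours. Sbno2, a transcriptional co-regulator downstream of interleukin-10, had 209, 212 and 220.0 CPM in anti-PD-1-treated tumours, against 222, 238 and 262 CPM in anti-PD-1-free tumours. The others below were Srek1ip1, Ado, Ergic1, Zfp763, Krt20, Gtpbp3, Git2, Rpl34-ps1 and Zscan12, chosen like the rest after their values were seen. Rbpms, an RNA-binding protein, had 57.2, 52.7 and 50.8 CPM in combination and 60.9, 84.1 and 84.2 CPM in anti-PD-1 tumours, against 97.5, 79.9 and 80.4 CPM in DSF tumours and 52.7, 57.6 and 45.8 CPM in controls. Combination lay below DSF, and anti-PD-1 lay above control. It fell by 0.68 ± 0.14 with DSF (adjusted p = 0.0416, edgeR) and stood at 0.55 ± 0.14 without it, so that its pooled value was -0.06 ± 0.10, and the difference between strata did not pass (adjusted p = 0.232).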

How the data were processed

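The authors deposited a gene table with expected counts, which are estimated read counts per gene of which 9.02% are not whole, and FPKM values for 12 libraries. The submitters' processing notes name the aligners HISAT2 2.0.4 and Bowtie2 2.2.5, the counter RSEM 1.2.12 and the package DESeq2 1.4.5 without their steps, and the genome build is not given in the sources used here. Columns were matched to titles by group name and number: columns named p are anti-PD-1 in the deposited group plan, and a control column ending in 11 was read as control 1. A further 12 per-sample columns of the table were not used.

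Expected counts were rounded, filtered with filterByExpr (14144 of 18433 genes kept), scaled by TMM and fitted with edgeR 4.0.16 (R 4.3.3) quasi-likelihood, with 1 mean per group over all 12 libraries. The pooled contrast is the mean of combination and anti-PD-1 minus the mean of DSF and control. Each stratum and the difference between strata are contrasts of the same fit. Tests were two-sided with Benjamini-Hochberg adjustment over all genes tested, and genes with adjusted p under 0.05 were called. SE is the log2 fold change over the square root of the quasi-likelihood F. Skin and adipocyte list scores as covariates, DESeq2 1.42.0, limma 3.58.1 on log2(FPKM + 1), other scaling and filtering, a replicate block, models without the DSF term or its interaction, only the libraries of a stratum, and leaving out each library were also fitted. Leaving out both libraries that stood apart was chosen after seeing the data. The fit was tested on simulated data.

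Genes named are the 15 with the smallest p in each direction at 1 CPM or more on average (since fewer than 10 were called), the target, its ligands and T cell effectors, among the 2 smallest p per direction of each list, and the genes with the smallest p for a difference between strata; others are said to be chosen later or are list members that passed. Some genes that these rules pick are not reported here. The members and the 29 gene lists were chosen with earlier results of these data known. Promoter sequences are from RefSeq (GRCm38.p6) and were matched by symbol or gene ID.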

Additional observations from a re-analysis of the deposited data

Results flagged for a closer look

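In each arm of 6 libraries, 20 of 238 sets of values (8.4%) had 1 library set apart from its nearest neighbour by more than 0.625 of the whole range. Chance gives about 1 in 20 for independent, normally distributed values of a single group. Each arm joins differently treated groups and many sets hold related genes, so that rate is only a rough guide. Anti-PD-1 replicate 2 and DSF replicate 2 were the library set apart 5 times each. No explanation was tested.

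Among anti-PD-1-treated tumours, anti-PD-1 replicate 2 was highest for Cd276 (61.9 CPM, next 45.3), Esm1 (3.99 CPM, next 1.75), Bcl3 (48.6 CPM, next 41.1) and the inflammatory cytokine genes together (0.217% of counts, next 0.187%). It was lowest for Il12b (1.57 CPM, next 3.50). Combination replicate 2 was highest for Ceacam19 (10.7 CPM, next 4.21) and combination replicate 3 for BC100530 (229 CPM, next 77.2). Anti-PD-1 replicate 1 had 6.17 CPM of Pdcd1, the antibody's target, and the next library had 3.87.

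Among anti-PD-1-free tumours, DSF replicate 2 was highest for Car3 (3732 CPM, next 199), Pnpla2 (541 CPM, next 150.0), Krt19 (23.4 CPM, next 7.48), the adipocyte genes together (1.28% of counts, next 0.0973%) and the erythrocyte genes together (0.0593%, next 0.0213%). DSF replicate 3 was highest for Il23a (19.9 CPM, next 10.5), and DSF replicate 1 was lowest for Cd276 (37.0 CPM, next 56.7). Control replicate 3 was highest for Bcl11b (6.12 CPM, next 3.53), Tnfrsf18 (7.83 CPM, next 4.69) and the regulatory T cell genes together (0.0423% of counts, next 0.0365%). Control replicate 1 was highest for Mcpt1 (6.52 CPM, next 2.94), and control replicate 2 for the cytotoxic and NK cell genes together (0.0392%, next 0.0199%).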

How the results depend on the processing

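With DSF the 263 calls became 7 with a replicate block, 1170 with DESeq2, and 0 with the covariates, with combination and DSF libraries alone, or without DSF replicate 2 and combination replicate 2. Leaving out each library in turn gave between 0 and 601. Over both strata DESeq2 called 321 and leaving out a library gave 0 to 16, and for the difference between strata DESeq2 called 235 and leaving out a library gave 0 to 19. Without DSF no setting called a gene. The cause was not tested. The labels do not say whether replicate numbers pair the samples. Of 18 same-number pairs 10 correlated above 0.1, with r between -0.365 and 0.462, and between 0.0421 and 0.383 for combination and DSF. These values do not settle whether the numbers pair the samples. The block called no gene in the other contrasts. With the covariates the pooled log2 fold change turned sign for 22 genes: BC100530 -0.33, Bcl11b -0.071, Btla -0.23, Car3 0.36, Cd276 0.17, Cd3e -0.32, Cd8a -0.050, Esm1 0.17, Foxp3 -0.19, Gzmb 0.19, Ifng -0.17, Il12b -0.017, Il23a 0.10, Mcpt4 -0.093, Pdcd1 -0.10, Pdcd1lg2 -0.074, Rab25 -0.30, Rbpms 0.11, Siglech -0.039, Timd4 -0.11, Tnfrsf18 -0.24, Xcr1 -0.026. With DSF it did so for 5: Cd3e -0.37, Foxp3 -0.32, Pdcd1 -0.21, Rab25 -0.51, Bcl11b -0.31. Leaving out single libraries, the pooled value ran between -2.05 and 1.01 for Car3, -0.32 and 0.030 for Gzmb, -0.13 and 0.28 for Prf1 and -0.11 and 0.0056 for Rbpms, and with DSF between -0.15 and 0.20 for Gzmb and -0.21 and 0.38 for Prf1. Without both libraries that stood apart, the pooled value was 0.81 for Car3 and -0.09 for Prf1, and with DSF it was -0.12 for Gzmb and -0.20 for Prf1. All 29 pooled list medians moved by less than the spread between libraries under other scaling, no filter, the block, DESeq2, limma on FPKM and both models with less of the DSF term, and 9 moved by more with the covariates. In the DSF stratum 20 of the 29 moved by more with the covariates and 8 without DSF replicate 2. Genes at a few CPM, such as Ifng and Pdcd1, rest on few counts and have wide errors.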
